A study of Homo sapiens with 6 samples.

Results

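A set of 9 genes of skeletal muscle was followed in subcutaneous tumours: Acta1, Ckm, Myh4, Myh1, Myh2, Tnnt3, Mylpf, Des and Mb. They were selected by a fixed list of Ensembl gene IDs, drawn up with earlier results of these data known, and all 9 were present among the 77134 mouse gene rows of the table. The tumours grew in BALB/c nude mice from A549 cells, a human lung adenocarcinoma line. There were 3 tumours from cells infected with the lentiviral vector pLV-CMV-HIF1A-AS3-EGFP-Neo (overexpression 1 to 3) and 3 from cells infected with pLV-CMV-EGFP-Neo (control 1 to 3). The CMV promoter drove the insert in a stably infected cell population, and cells of both groups carried EGFP and the Neo marker. The labels do not state the hosts' age or sex or whether each tumour grew in its own mouse, and p-values here reflect only how these tumours varied.

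Skeletal muscle fibres contract by sliding thick filaments of myosin along thin filaments of actin, and their adult type II fibres are told apart by the myosin heavy chain they carry. Troponin on the thin filament makes the sliding depend on calcium, while creatine kinase and myoglobin serve the supply of energy and oxygen. A thin sheet of skeletal muscle, the panniculus carnosus, lies under the skin of mice, next to where subcutaneous tumours grow. All rows are mouse genes, so the values describe RNA of host cells and any human transcripts that resemble them closely.

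The libraries held 4167784 to 4769157 estimated counts. Levels are given as CPM, counts per 1000000 scaled by library total and by TMM, a factor that evens out differences in composition. Overexpression 1 had the highest total, 4769157, but the lowest effective depth, the total times this factor. Its effective depth was 3520834, against 4347676 to 4745240 in the other libraries. Its TMM factor was 0.742, against 1.02 to 1.10 in the rest, and a lower factor raises every CPM of a library. The mean squared difference from sampling alone was 47.7 to 68.1 times for pairs with overexpression 1, and at most 28.3 times for other pairs. In overexpression 1, 17356 genes had 1 count or more, against 18753 to 19010 in the rest. A count of 0 allows up to 3 counts, which is 0.632 to 0.852 CPM by library. Intervals of counts, shares and count ratios are 95% intervals that cover counting error only, not the spread between tumours, and reads from PCR are not independent molecules. Intervals of log2 fold changes come from the edgeR fit and include the spread between tumours.

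Most of the muscle genes were at trace level, and 5 of them (Ckm, Myh1, Myh2, Tnnt3 and Mylpf) had 35.7 to 76.1% of their counts in a single tumour, control 2. Of the other 4, Acta1 had 20.2% of its counts there, Des 18.8%, Myh4 23.1% and Mb 0%. Acta1 and Des had 41 to 482 estimated counts in every library, whereas the other 7 members (Tnnt3, Mylpf, Myh1, Myh2, Myh4, Ckm and Mb) had at most 44.5. These 7 genes together had 27.1, 7 and 14 estimated counts in overexpression 1 to 3, against 44, 112 and 15 in controls 1 to 3. Control 2 held 51.0% of the counts of the 7 genes in all 6 libraries. Their summed level was 4.13 ± 3.21 CPM in overexpression tumours and 12.7 ± 11.3 CPM in controls (SD, n = 3 each), a sum that is not corrected for gene length. Without control 2 the mean of the controls was 6.37 CPM. The sums of the groups overlapped, because control 3, at 3.22 CPM, was about level with overexpression 3 and below overexpression 1, at 7.71 CPM. Separating these 7 genes from Acta1 and Des was decided after their values were seen. In bulk tissue, fewer muscle cells and less RNA per muscle cell cannot be told apart.

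**Figure D1:**
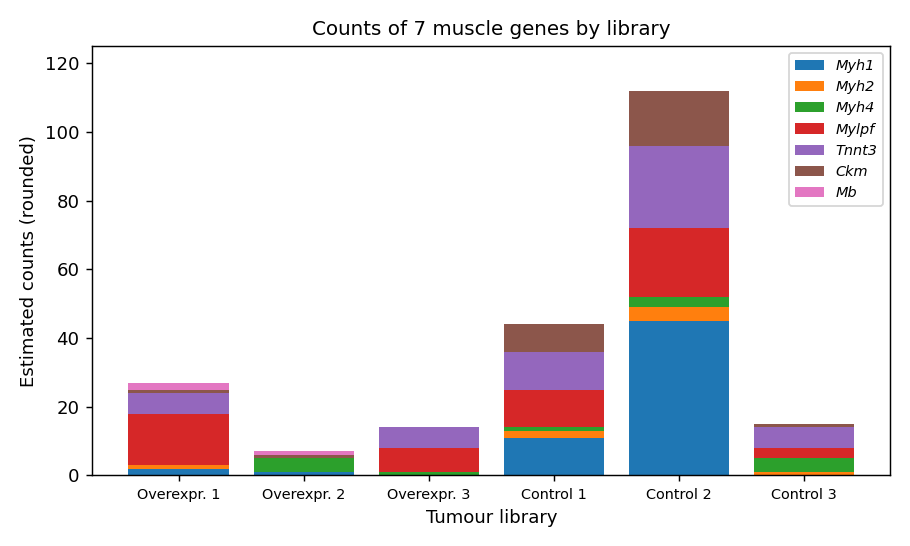
Rounded estimated counts of 7 muscle genes (stacked colours) in each tumour library, the 3 overexpression tumours on the left and the 3 controls on the right. Control 2 reaches 112 counts, with Myh1 as its largest block at 45, whereas no overexpression tumour passes 27.

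Myh1 (ENSMUSG00000056328), the heavy chain of fast type IIx fibres, had 2, 1 and 0 estimated counts in overexpression 1 to 3, against 11, 44.5 and 0 in controls 1 to 3. Control 2 alone carried 76.1% of its counts, and control 3 had none, so the groups overlapped. Its level was 0.260 ± 0.287 CPM in overexpression tumours and 4.15 ± 5.26 CPM in controls (SD, n = 3 each). The ratio of the depth-scaled sums of counts, overexpression over control, was 0.0582, with a counting interval of 0.0116 to 0.179. Without control 2 that ratio was 0.201 (0.0359 to 0.759), which rests on 3 counts in overexpression tumours and 11 in controls.

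Myh2 (ENSMUSG00000033196), the heavy chain of type IIa fibres, had 1, 0 and 0 counts in overexpression 1 to 3, against 2, 4 and 1 in controls 1 to 3. The values of 1 in overexpression 1 and in control 3 show the overlap of the groups at this depth, and the ratio of sums was 0.155 with an interval of 0.00344 to 1.21. Myh4 (ENSMUSG00000057003), the heavy chain of type IIb fibres, had 0, 4 and 1 counts in overexpression 1 to 3, against 1, 3 and 4 in controls 1 to 3. Its ratio of sums was 0.679 (0.175 to 2.35), and unlike Myh1 it was not concentrated in control 2, which held 23.1% of its counts.

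The share of Myh1 among the counts of the 3 heavy chains was taken in each tumour. It made up 45 of 52 rounded heavy chain counts in control 2, or 86.5% (Clopper-Pearson interval 74.2 to 94.4%), and 11 of 14 in control 1, or 78.6% (49.2 to 95.3%). In control 3 it made up 0 of 5, with an interval of 0 to 52.2%. Each share is that of 1 library, so a difference between tumours was not tested. Overexpression tumours had 3, 5 and 1 heavy chain counts, which, like the 5 of control 3, are too few to give a balance. Myh1 made up 2, 1 and 0 of them, and in overexpression 2 its share was 20% (0.505 to 71.6%). The heavy chain genes are close copies of each other, so the way reads were shared out among them is uncertain; among their values, the Myh1 estimate in control 2 was the single one that was not a whole number.

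Mylpf (ENSMUSG00000030672), the regulatory light chain of fast myosin, had 15, 0 and 7 counts in overexpression 1 to 3, against 11, 20 and 3 in controls 1 to 3. After TMM scaling overexpression 1 reached 4.26 CPM, close to the 4.52 CPM of control 2. With library totals only these levels were 3.16 and 4.83 CPM. The TMM-scaled level was 1.96 ± 2.15 CPM in overexpression tumours and 2.52 ± 1.94 CPM in controls (SD, n = 3 each), so tumours of one group differed more than the groups did. Overexpression 2 had none. Mylpf was 15 of the 27 counts of the 7 genes in overexpression 1, or 55.6% (35.3 to 74.5%), but 20 of 112 in control 2, or 17.9% (11.3 to 26.2%). Myh1 was at 7.41% (0.910 to 24.3%) in overexpression 1 and 40.2% (31.0 to 49.9%) in control 2. These libraries were picked for their Mylpf levels, and with 1 library a side the shares are a description.

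Tnnt3 (ENSMUSG00000061723), the fast fibre form of the troponin subunit that binds tropomyosin, had 6, 0 and 6 counts in overexpression 1 to 3, against 11, 24 and 6 in controls 1 to 3. Control 2 was again highest, overexpression 2 had none, and control 3 was level with the overexpression tumours that had counts. The ratio of sums was 0.318 (0.152 to 0.617), and without control 2 it was 0.519 (0.226 to 1.15), an interval that includes equal levels.

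Ckm (ENSMUSG00000030399), the muscle form of creatine kinase, had 1, 1 and 0 counts in overexpression 1 to 3, against 8, 16 and 1 in controls 1 to 3. Controls 1 and 2 stood above the overexpression tumours and control 3 was at the same trace level as they were. The ratio of sums was 0.0869 (0.00997 to 0.348), and 0.163 (0.0172 to 0.790) without control 2. Mb (ENSMUSG00000018893), the oxygen-binding protein myoglobin, was at or near 0 throughout, with 2.13, 1 and 0 estimated counts in overexpression 1 to 3 and 0 in each control. Control 2, the tumour with the most counts of the other fibre genes, was thus among the 4 libraries in which Mb was listed at 0. No fold is given for Mb because neither group passed the limit of 3 counts in any library.

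**Figure D2:**
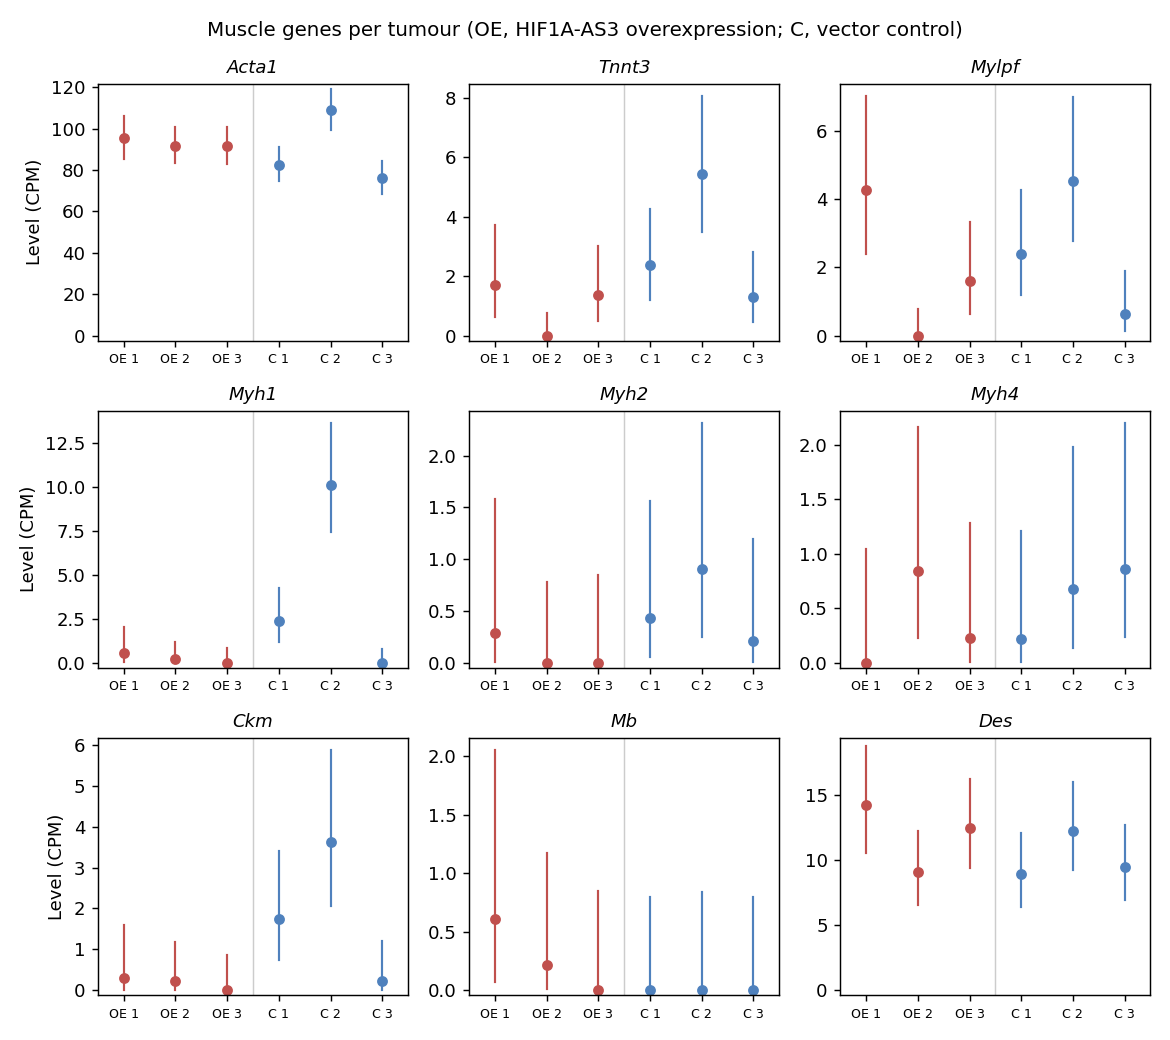
Level in CPM (vertical axes, a scale of its own for each gene) of the 9 muscle genes in each tumour, overexpression (OE) in red on the left and control (C) in blue on the right; points are estimates and bars 95% exact Poisson intervals. Myh1 stands at 10.1 CPM in control 2 and at 2.38 CPM or less elsewhere, while Acta1 lies between 76.0 and 109 CPM in all 6 libraries.

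Acta1 (ENSMUSG00000031972), the actin of skeletal muscle thin filaments, had group means close to each other after TMM scaling with all 6 libraries. It measured 336, 435 and 398 estimated counts in overexpression 1 to 3, against 382, 482 and 354 in controls 1 to 3. These were 95.3, 91.8 and 91.5 CPM in overexpression tumours and 82.5, 109 and 76.0 CPM in controls, so the overexpression tumours all lay inside the range of the controls. The group means were 92.9 ± 2.15 CPM in overexpression tumours and 89.2 ± 17.5 CPM in controls (SD, n = 3 each). This position and the small SD depend on the scaling. With library totals only, overexpression 1 to 3 were at 70.7, 94.0 and 93.6 CPM. Overexpression 1 then lay below every control, at 90.6, 116 and 83.4 CPM in controls 1 to 3. With TMM scaling the ratio of sums, overexpression over control, was 1.04 (counting interval 0.961 to 1.13). Without control 2 it was 1.17 (1.06 to 1.28), an interval that leaves out the spread between tumours. Control 2 was 1.37 times as high as controls 1 and 3 together (counting interval 1.22 to 1.54). The same ratio was 8.59 for Myh1 (4.37 to 18.4), 3.73 for Ckm (1.55 to 9.58), 3.00 for Mylpf (1.44 to 6.42) and 2.96 for Tnnt3 (1.53 to 5.88). It was 2.80 for Myh2 (0.473 to 19.1) and 1.26 for Myh4 (0.196 to 6.47), whose intervals include equal levels, and Mb had no counts in controls. Control 2 was picked because most members were highest in it, which by itself raises these ratios. They are a description, and their intervals do not allow for that choice. Actins of muscle and of other cells are close copies, and the Acta1 estimate was not a whole number in all 6 libraries, as in 39.3% of the genes tested. How much of the Acta1 value came from reads shared with other genes was not tested.

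Des (ENSMUSG00000026208) encodes desmin, an intermediate filament that ties neighbouring myofibrils together and is also found in smooth and heart muscle. Overexpression 1 to 3 had 50, 43 and 54 estimated counts, against 41, 53.9 and 44 in controls 1 to 3, and the groups overlapped. The level was 11.9 ± 2.61 CPM in overexpression tumours and 10.2 ± 1.77 CPM in controls (SD, n = 3 each). Control 2, picked from the members' values, was 1.33 times as high as the other controls together, with an interval of 0.930 to 1.90 that includes equal levels.

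The spread between tumours was compared with what counting alone would give, as a ratio of the observed to the counting variance. For Myh1 this ratio was 1.33 among overexpression tumours and 31.2 among controls, and 11.1 between controls 1 and 3 alone. For Acta1 it was 0.200 among overexpression tumours and 15.4 among controls, and 1.25 between controls 1 and 3. These ratios use the TMM-scaled depth, and the Acta1 level of overexpression 1 was 70.7 CPM with library totals only. For Mylpf it was 10.6 among overexpression tumours and 6.89 among controls. Control 2 was left out here because it was the highest library, which by itself lowers the ratio, so these values are a description.

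The comparison of overexpression with control tumours asks how raising HIF1A-AS3 in the cancer cells changed the tumour, here as read on host muscle genes. No muscle gene passed the test across all genes. A filter on low counts let 3 of the 9 members into the test, Acta1, Des and Mylpf, and the other 6 were too low. Of these 3, 0 passed an adjusted p below 0.05 in edgeR's quasi-likelihood test with Benjamini-Hochberg adjustment, beside 0.0158% of the 12637 genes tested. With an unadjusted p below 0.05 as the limit the edgeR count was also 0 of 3, beside 6.29% of the genes tested. On the same genes and at that limit, DESeq2 had 0 of 3, beside 871 of 12637, and limma-voom 0 of 3, beside 707 of 12637. Neither called any of the 3 at an adjusted p below 0.05. The median log2 fold change was 0.06 over these 3 members and 0.01 over all genes tested. In 0 of the 9 members did the groups lie apart, beside 13.1% of the genes tested. That share is over genes that passed the filter, which 6 of the members did not, so it is not one for rows this low.

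The log2 fold change of Acta1, overexpression over control, was 0.06 (standard error 0.18, edgeR adjusted p 0.94). The interval of that log2 fold change was -0.37 to 0.48, which holds values of either sign. Des stood at 0.22 on the same scale (standard error 0.26, interval -0.39 to 0.83, edgeR adjusted p 0.84). The signs of both became negative, at -0.17 for Acta1 and -0.03 for Des, when libraries were scaled by totals only, a scaling that moved the median of all genes to -0.21. Mylpf gave -0.42 (standard error 1.06, interval -2.89 to 2.05, edgeR adjusted p 0.93). Its sign rested on single libraries, since the log2 fold change was 0.31 without control 2 and 0.21 without overexpression 2.

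With no filter, 25492 rows entered the edgeR fit and all 9 members received a value. Again 0 of 9 passed an adjusted p below 0.05, beside 0.0549% of the rows, and 1 was lower at an unadjusted p below 0.05, beside 2.48% of the rows in that direction. That gene was Ckm, at a log2 fold change of -3.31 (standard error 1.12, edgeR adjusted p 0.71). Myh1 had the most negative value, -3.95 (standard error 1.85, edgeR adjusted p 0.73). Fitted values of such low counts depend on the prior count added by the fit. Myh1 passed the threshold in edgeR without control 3, the control in which it was at 0, at an adjusted p of 0.0014 and a log2 fold change of -4.53. The share of all rows that passed in that fit was not counted, so this call has no background beside it. With the filter on low counts and without control 3, Myh1 did not pass, at an adjusted p of 0.46 in edgeR. In that filtered fit 3 of 12991 genes passed. Without control 2 and with no filter the log2 fold change of Myh1 was -2.15 at an edgeR adjusted p of 0.81. DESeq2 on all rows had Ckm and Myh1 at unadjusted p values of 0.028 and 0.013, and at adjusted p values of 0.92 and 0.85. In that fit 977 of the 77134 rows, which include rows without counts, had an unadjusted p below 0.05 in either direction.

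**Figure D3:**
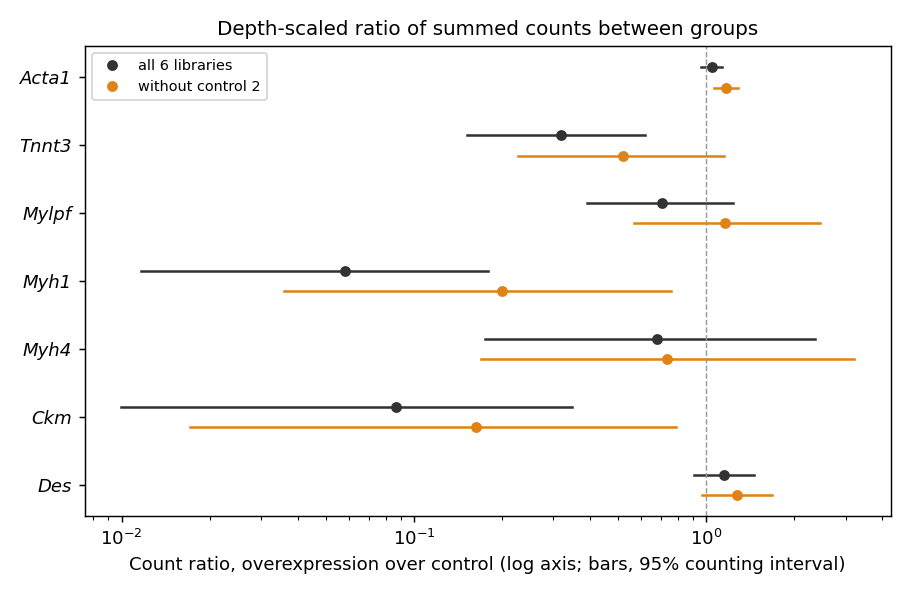
Ratio of depth-scaled sums of counts, overexpression over control (horizontal log axis), with all 6 libraries (black) and without control 2 (orange). The genes drawn are Acta1, Tnnt3, Mylpf, Myh1, Myh4, Ckm and Des, while Myh2 and Mb are not drawn. Bars are 95% counting intervals and leave out the spread between tumours, and the dashed line marks equal levels. Myh1 lies at 0.0582 with all libraries and at 0.201 without control 2, and Mylpf lies at 0.703 with all libraries and on the other side of the line, at 1.16, without control 2.

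Control 2 was the highest library in 6 of the 9 members: Acta1, Ckm, Myh1, Myh2, Tnnt3 and Mylpf. The same library was highest in 12.6% of the genes tested and in 16.5% of the 6469 rows whose totals lay in the range of the 7 low members, 3.13 to 58.5 counts. Myh4 was highest in control 3, and Des and Mb in overexpression 1. With library totals only, Des too was highest in control 2. It was then at 13.0 CPM there, 12.7 CPM in overexpression 3 and 10.5 CPM in overexpression 1. Genes of 1 tissue can vary together, so the 6 genes are not to be counted as 6 independent signs of control 2. Whether these genes shared 1 source there was not tested. Whether tissue next to the tumour was taken with control 2 was not tested, because markers of skin, fat and other muscle genes were not analysed here.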

How the data were processed

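RNA of 6 tumours was sequenced as 1 library each, after TRIzol extraction, per the labels' protocols. The authors deposited 1 table of estimated counts per mouse gene, not normalized, and all 6 columns were matched to tumours by name. The submitters' processing notes name featureCounts 2.0.6, HISAT2 2.2.1, Trimmomatic 0.39, edgeR, DESeq2 and the build mm10 without roles. The table's name points to salmon, with no version or annotation stated. Estimated counts are sensitive to how reads shared by similar genes are divided.

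Counts were rounded and tested in R 4.3.3 with edgeR 4.0.16 (filterByExpr, which kept 12637 genes with 99.5% of counts; TMM; robust quasi-likelihood F-test on group; Benjamini-Hochberg over all genes; adjusted p below 0.05). Standard errors are the log2 fold change over the square root of F. CPM use the total over tested genes times the TMM factor. Intervals of counts are exact Poisson, of shares Clopper-Pearson, and of count ratios exact conditional binomial. The fit was checked on simulated data, with changes planted only in genes of higher mean count than the low members, so the check does not cover these members. The closest pair of libraries, controls 1 and 3, had a mean squared difference 3.88 times that of sampling alone, so none repeated the reads of another. This measure cannot tell a second library of the same RNA from a library of another tumour. Estimates within 0.001 of a whole number were taken as whole. Alternatives were DESeq2 1.42.0, limma-voom (limma 3.58.1), other scalings, other filters, a replicate block and leaving out each library.

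The 9 members and all lists were chosen with earlier results of these data known. All 9 members are named. The rule also took the 5 other genes closest to the mean profile of the tested members, at most 2 of them by ID if without a symbol. Of the table's IDs, 0 matched the name tables used here, which are human, so lists of other muscle genes and of other cell types were not analysed.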

Additional observations from a re-analysis of the deposited data

How the results depend on the processing

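The number of genes changed, 2 of 12637 in edgeR, was 28 with DESeq2 on the same genes, 29 with DESeq2 on all rows, 7 with limma-voom, 14 without the filter, 4 when scaled by totals only and 0 with the replicate block (414 at an unadjusted p below 0.05). It was 0 to 14 when single libraries were left out. Deviations of same-numbered libraries from their group means were negatively correlated, at r of -0.09, -0.34 and -0.10. These r are taken across genes, which are not independent replicates, and the labels do not say that the numbers are paired. The tested members were called in none of the 16 alternatives. Their direction turned for Acta1 with library totals only (-0.17) and without control 3 (-0.042), for Des with library totals only (-0.027), and for Mylpf without control 2 (0.31) and without overexpression 2 (0.21). Leaving out 1 library gave -0.042 to 0.23 for Acta1, 0.04 to 0.39 for Des and -1.67 to 0.31 for Mylpf. The mean of at least 5 CPM removed Mylpf. The summed level of the 9 members in overexpression 1 was 117 CPM, and 87.0 CPM with library totals only. The fits of all rows without 1 library, with totals only and with the block were chosen after seeing the data. In these fits and in DESeq2 on all rows, the 6 low members kept their sign. Myh1 without control 3 was the single call among them, and the share of all rows called in that fit was not counted. Myh1, Ckm, Myh2, Myh4 and Mb were at 3 counts or fewer in most libraries. For Myh2, Myh4 and Mb this depth allows no firm statement on a difference between the groups. The count ratios of Myh1 and Ckm rest on controls 1 and 2. Their variance among controls was 31.2 and 7.22 times that of counting, so no firm statement is made for these genes either.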

Other observations

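Of the genes that are no member, the 2 whose centred log2 CPM over the 6 libraries lay closest to the mean of Acta1, Des and Mylpf are known here by ID only. ENSMUSG00000039450.12 had 5.68, 1.96 and 3.55 CPM in overexpression 1 to 3, against 3.03, 4.61 and 2.58 CPM in controls 1 to 3, at a root mean square distance of 0.13 on the log2 scale. ENSMUSG00000020407.14 had 10.5, 3.89 and 6.21 CPM in overexpression 1 to 3, against 6.61, 8.06 and 4.61 CPM in controls 1 to 3, at the same distance of 0.13. The median gene lay at 0.58. In both genes overexpression 1 and control 2 were high and overexpression 2 was low, the order that Mylpf gives the mean, and Mylpf itself lay 0.73 from that mean because it varied more than Acta1 and Des.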
